A study of Homo sapiens with 4 samples.

Results

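FOS, FOSL1, FOSL2, JUN, JUNB, JUND, EGR1, IER2, IER3 and DUSP1 were followed as a set of AP-1 and immediate early genes in HGC-27 cells, a human gastric cancer cell line. The set was chosen by gene name, with earlier results of these data known. All 10 genes had a count in every library, among 31907 gene names with a count in at least 1 library and 19194 names with a count in all 4. RNA was sequenced from 2 libraries of cells given the vehicle PBS and 2 libraries of cells given recombinant IL-17B (rIL-17B) at 200 ng/ml, and all were collected after 48 h. The study asked how IL-17B acts on gastric cancer cells, and the transcriptome comparison addressed which mRNAs moved with the cytokine. All libraries came from the same cell line, the label of the library protocol speaks of monocytes, and nothing in the labels says whether replicates were separate cultures.

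AP-1 is a dimer of basic leucine zipper proteins. FOS family proteins bind DNA only together with a partner, usually a JUN family protein, while JUN family proteins can also pair among themselves. Growth factors, cytokines and stress switch on FOS, JUN, EGR1 and the other immediate early genes within minutes through mitogen-activated protein kinases (MAPKs), without new protein synthesis, and their short-lived mRNAs then decline. DUSP1 is a phosphatase that takes the phosphate off those kinases and so closes the loop. Receptors of the IL-17 family can signal to MAPKs through the adaptor ACT1 and TRAF6. The libraries hold no time point earlier than 48 h, so they show levels long after any first burst of transcription.

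rIL-17B replicate 1 stood apart from the other 3 libraries. Over genes with at least 10 counts in the pair, chi-square divided by its degrees of freedom was 3.45 between both PBS libraries. It was 5.93 and 7.93 between rIL-17B replicate 2 and PBS, and 163 and 159 between rIL-17B replicate 1 and PBS. The libraries held between 12888029 and 17555879 counts, so that 3 counts, the floor used here, corresponded to between 0.171 and 0.233 CPM (the count scaled to a library total of 1 M). Cell type markers moved with replicate 1 as well. The summed level of 7 fibroblast and matrix markers was 18671 and 18239 CPM under PBS, 552 CPM in rIL-17B replicate 1 and 15852 CPM in replicate 2, with all 7 lower in replicate 1. The summed level of 5 mesenchymal markers, led by FN1, was between 28304 and 34142 CPM in the other 3 libraries and 527 CPM in replicate 1. The 6 epithelial markers summed to 988 and 981 CPM under PBS and to 2212 and 1239 CPM under rIL-17B. KRT8, KRT18 and KRT7 carried that sum, whereas CDH1, the epithelial cadherin, had between 0.44 and 0.753 CPM and EPCAM between 3.03 and 5.34 CPM in any library. KRT19 had 0.0684 CPM in replicate 1, from 1 count, and between 2.96 and 3.34 CPM in the others. The 8 monocyte markers summed to between 8.55 and 10.82 CPM, and 5 of them (LYZ, PTPRC, ITGAM, FCGR3A and TYROBP) were at 0 in replicate 1. CSF1R carried most of the sum there, with 8.14 CPM against 3.90 and 5.59 CPM under PBS and 6.15 CPM in replicate 2, and CD68 was at 0 in both PBS libraries. The 8 mitochondrial transcripts took between 51357 and 56370 CPM. The part of these differences in the results was not tested. Whether replicate 1 holds the same cell material as its label says was not tested either, and this limits every value of that library. Values are therefore given for each rIL-17B library, and the tests of the 10 genes and of the lists also with replicate 1 left out.

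The promoters of these genes were searched for sequences that SRF, CREB, AP-1 and EGR proteins can bind, since such factors act at early genes. Promoters from RefSeq (GRCh38.p14) were available for 8 of the 10 genes, all but FOSL1 and IER3. The 250 bases before each transcription start were searched on both strands after the expression values had been seen. Sites outside this window were not searched, so a missing match does not mean that a gene lacks the site. EGR1, on chromosome 5, was the 1 gene of the 8 with a CArG box, the site of serum response factor (SRF), and it held 2 of them, against 1.16% of 35116 promoters with any. Its window, chr5:138465229-138465478 on the plus strand, is shown whole, with CArG boxes and the pentamer CGTCA in capitals. CGTCA is TGACG read on the other strand, and TGACG is the start of the cyclic AMP response element TGACGTCA.
EGR1 promoter: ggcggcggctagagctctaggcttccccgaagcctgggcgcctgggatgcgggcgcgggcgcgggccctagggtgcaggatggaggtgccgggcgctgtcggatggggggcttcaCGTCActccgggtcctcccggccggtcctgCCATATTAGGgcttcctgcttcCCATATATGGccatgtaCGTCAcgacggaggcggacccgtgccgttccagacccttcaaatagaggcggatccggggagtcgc

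The octamer TGACNTCA, which CREB and ATF proteins and their dimers with JUN can bind, was found in 3 of the 8 windows (JUN, JUND and DUSP1), and in 6.87% of all promoters. The 3 sites are shown as the only matches in the 8 windows, and a link between the octamer and the levels of these genes was not tested. Capitals mark the octamer in 30 bases on the strand of the gene, at chr1:58784096-58784125 (minus strand) for JUN, chr19:18281804-18281833 (minus strand) for JUND and chr5:172771302-172771331 (minus strand) for DUSP1.
JUN site: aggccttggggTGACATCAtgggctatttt
JUND site: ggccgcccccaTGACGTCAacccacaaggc
DUSP1 site: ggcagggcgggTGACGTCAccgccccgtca
The shorter pentamer TGACG, which overlaps the octamer where that reads TGACGTCA, was found in 8 of 8 windows, against 21.2% of all promoters. In FOS it lay 64 bases before the RefSeq start, within chr14:75278752-75278781 on the plus strand. The GENCODE 29 gene starts earlier, at 75278774, so that the window shown crosses that start. The RefSeq windows of FOSL2 and JUN also lie inside the longer GENCODE genes.
FOS site: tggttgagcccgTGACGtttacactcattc
TGANTCA, the heptamer that AP-1 itself binds, was found in 0 of the 8 windows and in 6.57% of promoters. GCGNGGGCG, a sequence bound by EGR proteins, was found in 1 window, that of EGR1, against 8.41%, and TATAAA in 3 (FOS, JUNB and DUSP1), against 10.72%. A match describes the letters of the window and was not tested for binding.

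JUN, FOS, FOSL1, JUND and EGR1 were lower in each rIL-17B library than in either PBS library, whereas FOSL2, JUNB and DUSP1 overlapped between the groups and IER2 and IER3 were higher in both. Tested with edgeR's quasi-likelihood method and adjusted by Benjamini-Hochberg over 16361 genes, 0 of the 10 genes passed 0.05, as did 0.0% of all genes tested, and 0 of the 10 had an unadjusted p under 0.05, against 1.38% of all genes. The counts below describe the libraries, because 2 libraries against 2 cannot give a two-sided exact permutation p under 0.33.

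**Figure D1:**
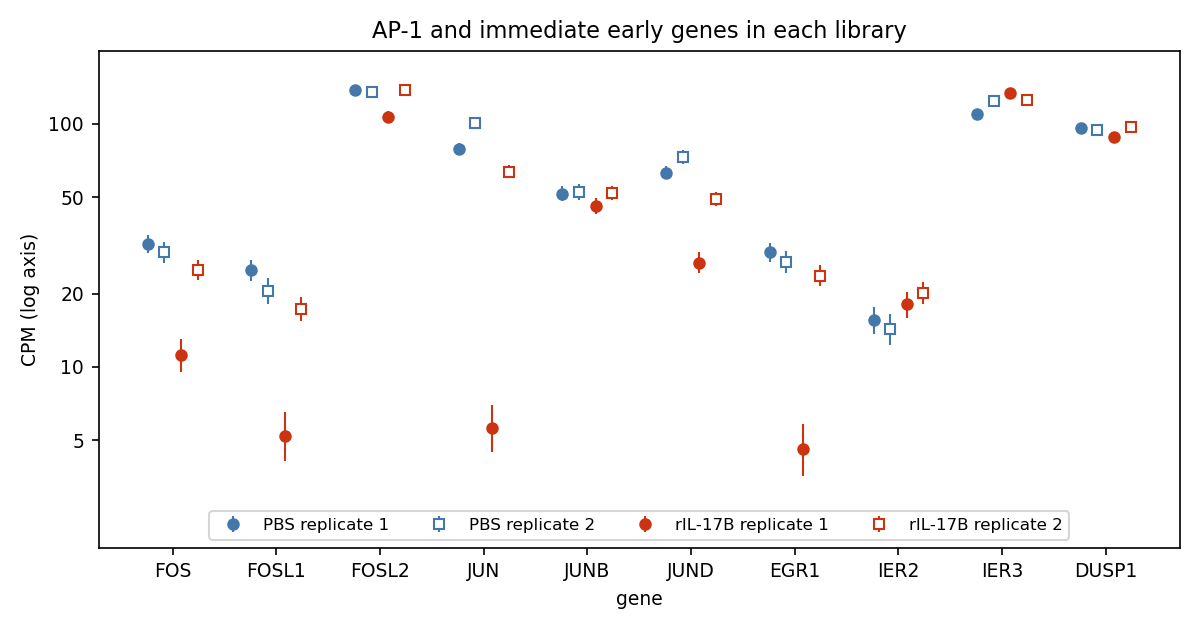
Level of the 10 genes in each library, in CPM on a log axis (points, 1 library each; bars, exact 95% Poisson intervals for counting error). rIL-17B replicate 1 holds the lowest point of FOS, FOSL1, FOSL2, JUN, JUNB, JUND, EGR1 and DUSP1, and JUN spans 5.61 to 100.9 CPM.

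JUN encodes the founding JUN protein, the most strongly activating partner of FOS. JUN stood at 78.9 and 100.9 CPM under PBS, 5.61 CPM in rIL-17B replicate 1 and 63.6 CPM in replicate 2, from 1255, 1300, 82 and 1117 counts. Both rIL-17B libraries lay below both PBS libraries, 16.0-fold and 1.41-fold under the PBS mean. The 2 PBS libraries themselves differed beyond counting error, with 95% intervals of 74.6 to 83.4 CPM and 95.5 to 106.5 CPM. The group means were 89.9 ± 15.5 CPM under PBS and 34.6 ± 41.0 CPM under rIL-17B (SD, n = 2 libraries each). The log2 fold change was -1.39 (SE 1.23, edgeR adjusted p = 0.665). SE is the standard error, worked back from the log2 fold change and the statistic of edgeR's test. Less RNA per cell and fewer cells that make the RNA cannot be told apart in bulk libraries, here and for all genes below.

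JUND encodes the JUN protein that is least dependent on stimulation. It had 63.1 and 73.2 CPM under PBS and 26.8 and 49.1 CPM in replicates 1 and 2 under rIL-17B. Again the groups did not overlap, and replicate 1 was 2.54-fold and replicate 2 was 1.39-fold under the PBS mean. Its log2 fold change of -0.89 (SE 0.39, edgeR adjusted p = 0.661) had the smallest unadjusted p of the 10 genes, 0.0894. JUNB, a weaker activator that can oppose JUN, had 51.6 and 52.3 CPM under PBS and 46.0 and 51.8 CPM under rIL-17B. Replicate 2 lay between the PBS libraries and replicate 1 below them, and the log2 fold change was -0.15 (SE 0.14, edgeR adjusted p = 0.673). JUNB shares its position with HOOK2 on the other strand, and whether strand was used in counting is not given in the sources used here, so its count is uncertain.

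FOS encodes the short-lived protein after which the family is named. It had 32.1 and 29.6 CPM under PBS and 11.2 and 25.1 CPM in replicates 1 and 2 under rIL-17B, from 510, 381, 164 and 440 counts. The groups did not overlap, but the 95% interval of replicate 2, 22.8 to 27.5 CPM, met that of PBS replicate 2, 26.7 to 32.7 CPM. The log2 fold change was -0.81 (SE 0.49, edgeR adjusted p = 0.661). FOSL1 encodes FRA-1, the FOS relative best known from invasive carcinoma cells. It had 25.02 and 20.5 CPM under PBS and 5.20 and 17.4 CPM under rIL-17B, a log2 fold change of -1.05 (SE 0.70, edgeR adjusted p = 0.661). Replicate 1 lay 4.38-fold and replicate 2 lay 1.31-fold under the PBS mean of FOSL1. FOSL2 encodes FRA-2 and had 138 and 135 CPM under PBS and 107 and 138 CPM under rIL-17B. Replicate 2 of FOSL2 was level with PBS, and the log2 fold change was -0.22 (SE 0.21, edgeR adjusted p = 0.674). FOSL2 overlaps an antisense gene and a gene within its intron, so its count too is uncertain without strand.

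EGR1, a zinc finger transcription factor induced by the ERK branch of the MAPKs, had 29.7 and 27.0 CPM under PBS and 4.58 and 23.8 CPM in replicates 1 and 2 under rIL-17B. The groups did not overlap, and the log2 fold change was -1.02 (SE 0.89, edgeR adjusted p = 0.664). Replicate 1 was 6.18-fold under the PBS mean, and its 67 counts give a 95% interval of 3.55 to 5.82 CPM. Replicate 2 was 1.19-fold under it.

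IER2 and IER3 encode short proteins named for their early response. IER2 had 15.6 and 14.4 CPM under PBS and 18.1 and 20.2 CPM under rIL-17B, 1.21 and 1.35 times the PBS mean in replicates 1 and 2. Its log2 fold change was 0.29 (SE 0.18, edgeR adjusted p = 0.661). IER3, a regulator of apoptosis and of ERK signalling, had 110 and 124 CPM under PBS and 134 and 125 CPM under rIL-17B. Replicate 2 lay just above PBS replicate 2, and after TMM scaling the groups overlapped. The log2 fold change of IER3 was 0.08 (SE 0.11, edgeR adjusted p = 0.739). Both genes overlap an antisense gene. DUSP1 had 96.3 and 94.0 CPM under PBS and 88.0 and 96.7 CPM under rIL-17B, a log2 fold change of -0.11 (SE 0.14, edgeR adjusted p = 0.714), and it overlaps an antisense gene. In none of the 10 genes did the edgeR test over 4 libraries separate the groups, and the standard errors were widest for JUN, EGR1 and FOSL1, whose rIL-17B libraries lay farthest apart.

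**Figure D2:**
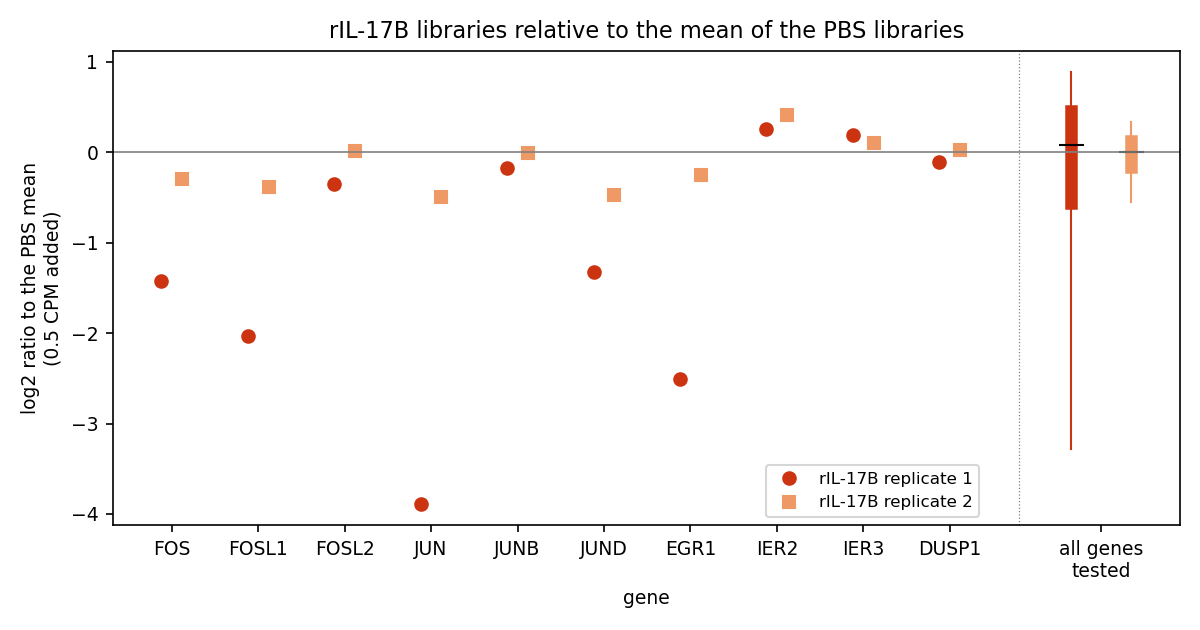
log2 ratio of each rIL-17B library to the mean of the PBS libraries, with 0.5 CPM added to each value (points), beside the same over the 16361 genes tested (thick bar, middle 50%; thin line, 5% to 95%; dash, median). In replicate 1 JUN, at -3.89, lies below the 5% limit of all genes (-3.28), and in replicate 2 IER2, at 0.42, lies above the 95% limit (0.33).

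Set against all genes, the members were lower in more cases than higher. Because the set was chosen with earlier results of these data known, the shares only describe it. In CPM, 5 of the 10 lay below both PBS libraries in both rIL-17B libraries, against 27.5% of all genes tested, and 2 lay above, against 31.5%. With TMM scaling 6 lay below (JUNB was added) and 1 above (IER2), against 30.3% and 28.6% of all genes. In replicate 1, 5 of the 10 were at least 2-fold under the PBS mean with 0.5 CPM added (FOS, FOSL1, JUN, JUND and EGR1), against 18.6% of all genes, and 0 were at least 2-fold over it, against 2.61%. In replicate 2, 0 of the 10 were 2-fold lower, against 0.575% of all genes, and 0 were 2-fold higher, against 0.0611%. The median log2 ratio of the 10 genes was -0.84 in replicate 1 and -0.13 in replicate 2, where that of all genes was 0.08 and 0.00. These ratios of both libraries share the same PBS libraries and are not independent of each other. All 10 genes passed the filter on low counts.

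With rIL-17B replicate 1 left out, JUN and JUND passed the test and the other 8 genes did not. This fit compares 1 rIL-17B library with 2 PBS libraries and assumes that the single library varies as the PBS libraries do. Its standard errors draw in part on the spread of all genes, not on that of each gene alone. The PBS libraries themselves differed in JUN (78.9 and 100.9 CPM) and in JUND (63.1 and 73.2 CPM), which limits both calls. JUN fell by 0.50 and JUND by 0.47 on the log2 scale. These 2 of 10 compare with 2.3% of 17103 genes that were lower in this fit, and 0 of 10 members were higher, against 0.643% of genes. The log2 fold changes were -0.30 for FOS, -0.40 for FOSL1, -0.26 for EGR1 and 0.42 for IER2, with standard errors between 0.13 and 0.16 and adjusted p between 0.131 and 0.362 in edgeR's test. FOSL2, JUNB, IER3 and DUSP1 lay between -0.01 and 0.10. With replicate 2 left out instead, 8 of the 10 passed the edgeR threshold as lower (all but IER2 and IER3), against 31.9% of 17223 genes, and 0 as higher, against 23.2%.

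Levels can be compared between genes only per length, and CPM per kb of merged exon (GENCODE 29) was used for that. With PBS, IER3 was the highest at 86.4 ± 7.41 CPM per kb (SD, n = 2 libraries, also for the next values), followed by DUSP1 at 47.1 ± 0.827. JUND came next at 36.6 ± 3.84, then JUNB at 28.5 ± 0.263 and JUN at 25.4 ± 4.39. The values of JUN and JUNB differed by less than the spread of JUN, and their PBS libraries overlapped. FOSL2 had 19.1 ± 0.226, FOSL1 had 12.1 ± 1.70, FOS had 9.52 ± 0.547, EGR1 had 9.03 ± 0.603 and IER2 had 4.87 ± 0.285 CPM per kb. FOS and EGR1 overlapped between the PBS libraries as well, while the other neighbours in the order did not on this scale. Per kb of the longest transcript, FOS (14.3 ± 0.820) stood above FOSL1 (13.6 ± 1.92), and the PBS libraries of these 2 genes overlapped. A cDNA made from an oligo-dT primer need not cover a transcript evenly, which limits this scale.

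The make-up of the 2 families differed between the libraries, and a share within a family does not depend on how the libraries are scaled. Per kb of exon, JUN made up 26.4% and 29.5% of the JUN family sum with PBS, 3.84% in rIL-17B replicate 1 and 24.7% in replicate 2. JUNB made up 33.6% and 29.8% with PBS and 61.3% and 39.1% with rIL-17B. JUND stayed closer, at 40.1% and 40.7% with PBS and 34.9% and 36.2% with rIL-17B. In the FOS family, FOSL2 made up 45.4% and 48.6% with PBS, 70.6% in replicate 1 and 53.3% in replicate 2. FOSL1 took 31.3% and 27.9% with PBS and 13.0% and 25.4% with rIL-17B, and FOS took 23.3% and 23.5% against 16.4% and 21.3%. For all 6 genes the groups did not overlap in these shares per kb, with JUNB and FOSL2 the larger parts in both rIL-17B libraries. The shares add up to 100% in each family and so move together. Lack of overlap was common, since in CPM 31.5% of all genes tested lay above and 27.5% below PBS in both rIL-17B libraries. In shares of counts without length JUND overlapped, at 32.6% and 32.3% under PBS and 34.2% and 29.8% under rIL-17B. The family sums were 84.5 and 96.5 CPM per kb for JUN, JUNB and JUND with PBS, against 41.3 and 72.8 with rIL-17B. For FOS, FOSL1 and FOSL2 they were 42.4 and 38.9 with PBS, against 21.2 and 36.3. The ratio of the JUN family to the FOS family sum was 1.99 and 2.48 with PBS and 1.95 and 2.01 with rIL-17B, so that no difference was seen between the groups beyond the spread of the PBS libraries. FOSB, the FOS family member outside the set, named after its values were seen, had 11.6 and 11.2 CPM under PBS and 1.505 and 10.82 CPM under rIL-17B.

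**Figure D3:**
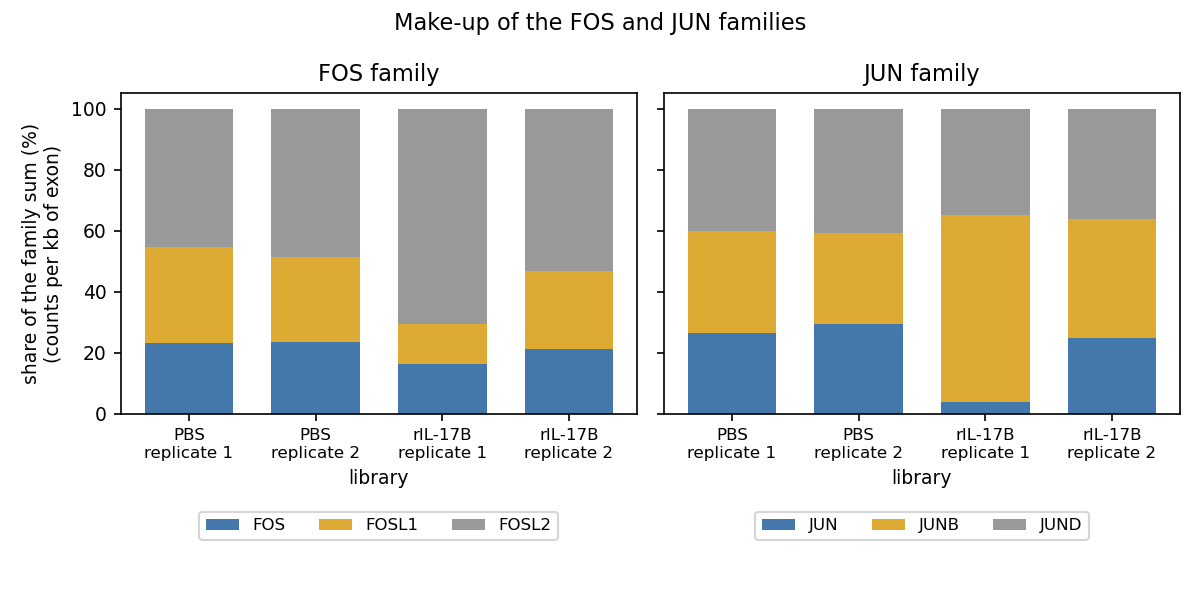
Share of each gene in the summed counts per kb of merged exon of its family (stacked bars, % of the family sum, 1 bar for each library). JUN takes 3.84% of the JUN family sum in rIL-17B replicate 1 and between 24.7% and 29.5% in the other 3 libraries.

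The mRNAs of immediate early genes are often unstable, and the pentamer ATTTA in a 3′ UTR is a known element of that instability. The pentamer was counted in the 3′ UTR of the transcript with the longest coding sequence in GENCODE 29, a search added after the values were seen. It was present in 9 of the 10 genes, all but IER2, and in 68.0% of 13481 tested genes with a 3′ UTR. The members had a median of 2.09 pentamers per kb, against 1.54 for those genes. IER3 had 8.14 per kb, FOS had 6.20 and DUSP1 had 5.95, densities that 2.39%, 5.54% and 6.25% of the genes reached. These 3 are shown at their densest 30 bases, with the pentamers in capitals, since they are the members richest in the element. The positions on GRCh38 are chr14:75282047-75282076 (plus strand) for FOS, chr6:30743655-30743684 (minus strand) for IER3 and chr5:172768651-172768680 (minus strand) for DUSP1, each within the last exon.
FOS 3′ UTR: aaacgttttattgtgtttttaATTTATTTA
IER3 3′ UTR: ttgctcctaattaatATTTAtatgtATTTA
DUSP1 3′ UTR: ggctcgagagggctggtccttATTTATTTA
The longer nonamer TTATTTATT, which holds the pentamer, was found in FOS, FOSL2 and DUSP1, and in 8.3% of the genes. JUN had 2.33 pentamers per kb and EGR1 had 0.81.

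The genes around the set were read from 5 hand-written lists of 117 genes, of which 116 had a count and 111 were tested. In the edgeR fit over 4 libraries 0 of the 111 had an adjusted p under 0.05, as in all genes, and 1 had an unadjusted p under 0.05, DUSP9. In CPM 27 of the 111 lay above and 56 below both PBS libraries in both rIL-17B libraries, against 31.5% and 27.5% of all genes tested. In replicate 1, where 18.6% of all genes were at least 2-fold under the PBS mean, this held for 13 of 20 AP-1 targets, 13 of 28 other early genes, 10 of 19 feedback genes, 5 of 11 leucine zipper genes and 2 of 33 upstream genes. Members of these lists were picked by function from general knowledge, with earlier results of these data known, so the shares only describe them. The lists share pathways, so that their genes are not independent of each other.

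Upstream of the early genes stand the kinases of the MAPK cascades, their ribosomal S6 kinases (RSKs), and the factors SRF, ELK and CREB that they act on. All 33 genes of this list were tested, with 16 above and 5 below PBS in both rIL-17B libraries, and the median log2 ratio was 0.20 in replicate 1 and 0.04 in replicate 2, above that of all genes. ARAF, a kinase of the ERK cascade, had 65.1 and 68.0 CPM under PBS and 90.5 and 74.2 CPM under rIL-17B. The MEK gene MAP2K2 had 168 and 175 CPM under PBS and 193 and 177 CPM under rIL-17B. RPS6KA1, an RSK, had 56.5 and 56.9 CPM under PBS and 115 and 69.3 CPM under rIL-17B, a log2 fold change of 0.61. The factor gene CREB1 stood lower, at 45.7 and 52.5 CPM under PBS against 35.3 and 42.2 CPM under rIL-17B. The 16 of 33 genes above PBS compare with 31.5% of all genes tested, and the 5 below with 27.5%. In the fit without replicate 1, RPS6KA2, another RSK, fell, with 107 and 109 CPM under PBS and 83.4 CPM in replicate 2, and it had 13.7 CPM in replicate 1. It was named after its values were seen.

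The feedback list held 19 genes beside DUSP1: other dual-specificity phosphatases and the SPRY, SPRED, ERRFI1 and NAB inhibitors. Of these, 4 lay above and 11 below PBS in both rIL-17B libraries (31.5% and 27.5% of all genes), with a median log2 ratio of -1.01 in replicate 1 and -0.15 in replicate 2. ERRFI1, an inhibitor of the EGF receptor, had 235 and 217 CPM under PBS and 33.9 and 203 CPM under rIL-17B. The EGR1 co-repressor NAB1 had 58.6 and 60.4 CPM under PBS and 70.3 and 64.2 CPM under rIL-17B. DUSP4, a nuclear MAPK phosphatase, had 53.9 and 80.0 against 18.3 and 42.2 CPM, and DUSP2, a relative, was higher at 55.8 and 33.8 CPM against 28.6 and 27.2 CPM. DUSP9 rested on few counts, 8 and 3 with PBS and 25 and 18 with rIL-17B. Its edgeR adjusted p was 0.661, and the unadjusted value was 0.0479. Without replicate 1, 5 of the 19 fell, against 2.3% of all genes, and these were DUSP4 (log2 fold change -0.66, edgeR adjusted p = 4.13e-07), DUSP6, SPRY1, SPRY2 and SPRY4, the last 4 named after their values were seen. In the same library DUSP1 was level with PBS. DUSP6, the cytoplasmic ERK phosphatase, had 64.8 and 92.1 CPM under PBS, 0.616 CPM in replicate 1 and 49.6 CPM in replicate 2. As with JUN and JUND, the PBS libraries differed in these 5 genes, with replicate 2 the higher in each.

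Among 29 other immediate early genes, 28 had a count and were tested (EGR4 had none), and 6 lay above and 20 below PBS in both rIL-17B libraries, where all genes gave 31.5% and 27.5%. Their median log2 ratio was -0.85 in replicate 1 and -0.18 in replicate 2. CTGF, a secreted matrix protein and target of SRF and YAP, had 802 and 776 CPM under PBS and 69.9 and 650 CPM under rIL-17B. SGK1, a kinase, went the other way, with 426 and 403 CPM under PBS and 793 and 512 CPM under rIL-17B. The nuclear receptor NR4A3 had 23.8 and 20.3 CPM under PBS and 45.7 and 28.7 CPM under rIL-17B, and the zinc finger gene KLF6 had 68.5 and 64.6 against 40.6 and 57.5 CPM. Early genes therefore stood on both sides of PBS. Without replicate 1, CTGF fell (edgeR adjusted p = 0.0206) as did ARC and PHLDA1, named after their values were seen, and SGK1 rose (edgeR adjusted p = 0.0115).

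The other basic leucine zipper genes whose proteins pair with JUN or FOS numbered 13, of which 11 were tested, all but BATF and BATF2. 1 lay above and 6 below PBS (all genes 31.5% and 27.5%), with medians of -0.67 and -0.09 in replicates 1 and 2. ATF3, a stress-induced partner of JUN, had 28.99 and 28.2 CPM under PBS and 7.46 and 25.6 CPM under rIL-17B. The partner ATF2 had between 57.8 and 59.7 CPM in all 4 libraries. The small MAF gene MAFG had 93.9 and 98.9 CPM against 60.2 and 90.4 CPM, and MAFK had 27.0 and 27.9 against 37.2 and 28.4 CPM. Without replicate 1, 0 of these genes passed the edgeR threshold.

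Textbook targets of AP-1 numbered 23, and 20 were tested, all but MMP3, MMP9 and MMP10. 0 lay above and 14 below PBS in both rIL-17B libraries, against the 31.5% and 27.5% of all genes given above, and the median log2 ratio was -1.84 in replicate 1 and -0.13 in replicate 2. HMOX1, haem oxygenase, had 817 and 782 CPM under PBS and 130 and 695 CPM under rIL-17B, and CCND1, cyclin D1, had 178 and 157 against 89.2 and 156 CPM. The EGF receptor ligands HBEGF and AREG had 14.1 and 13.9 CPM and 3.21 and 3.26 CPM under PBS. With rIL-17B HBEGF had 10.3 and 11.4 CPM and AREG 0.821 and 2.22 CPM. Without replicate 1, CXCL8, the chemokine IL-8, fell in the edgeR test. CXCL8, picked with its values in view, had 176 and 165 CPM under PBS, 0.0684 CPM in replicate 1 (1 count, under the floor of 3) and 125.6 CPM in replicate 2. Several of these genes encode matrix or secreted proteins, and the fibroblast and mesenchymal markers given above were lower in the same libraries; their part in the result was not tested.

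**Figure D4:**
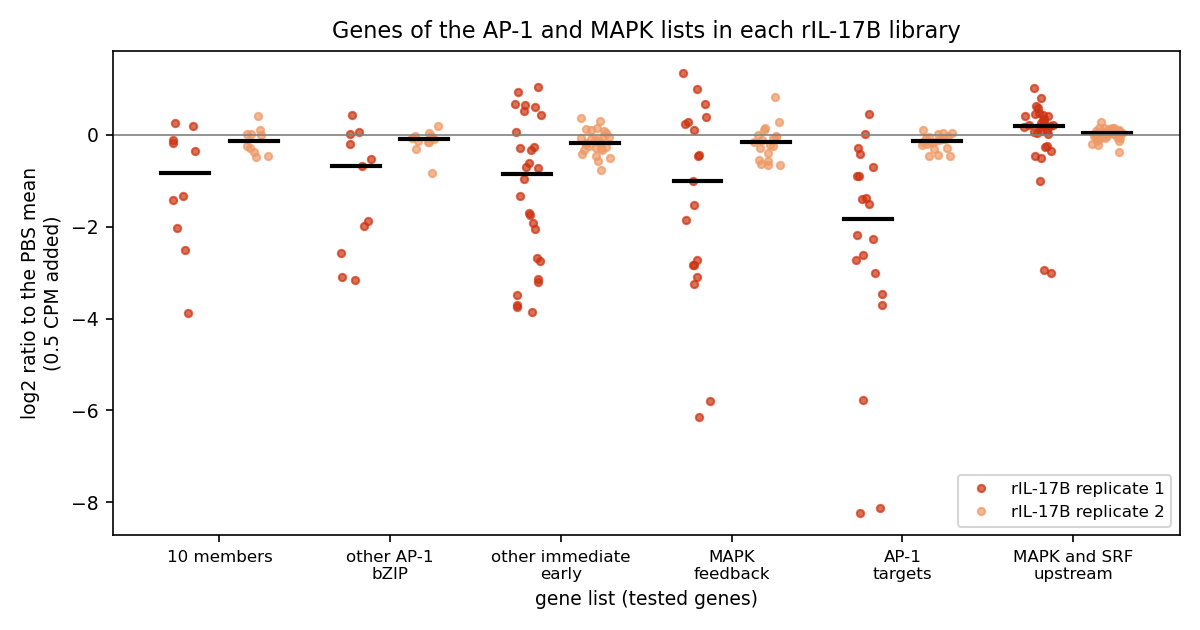
log2 ratio of each rIL-17B library to the PBS mean (0.5 CPM added) for the tested genes of the set and of 5 lists around it (points, 1 gene each; bars, medians). In replicate 1 the median is -1.84 for the AP-1 targets, -0.84 for the 10 genes and 0.20 for the upstream kinases and SRF factors; in replicate 2 all medians lie between -0.18 and 0.04.

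The genes whose profile over the 4 libraries was nearest to FOS and FOSL1 were found among 9860 genes with a mean of at least 10 CPM, by the Euclidean distance between centred log2 profiles. With 4 libraries, of which 1 stands apart, the distance rests mostly on that library. TWSG1 (distance 0.065), GLIPR2 (0.0679) and BACE1 (0.0727) were nearest to FOS, and TWSG1, which encodes a secreted BMP antagonist, had 92.5 and 81.5 CPM under PBS and 31.0 and 70.3 CPM under rIL-17B. GEM (0.0822), ARAP3 (0.136) and RND3 (0.144) were nearest to FOSL1. GEM, a small GTPase gene, had 21.4 and 16.2 CPM under PBS and 4.17 and 13.96 CPM under rIL-17B.

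By GENCODE 29 on GRCh38, JUN (chromosome 1, 58780788 to 58784327), JUNB (chromosome 19, 12791496 to 12793315), JUND (chromosome 19, 18279760 to 18281622) and IER2 (chromosome 19, 13150415 to 13154908) each have 1 coding exon. FOS (chromosome 14, 75278774 to 75282230), FOSL1 (chromosome 11, 65892049 to 65900573), FOSL2 (chromosome 2, 28392448 to 28417312) and DUSP1 (chromosome 5, 172768090 to 172771195) have 4. EGR1 (chromosome 5, 138465490 to 138469315) and IER3 (chromosome 6, 30743199 to 30744554) have 2.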

How the data were processed

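The authors deposited counts, whole numbers of reads per gene name, without normalization, for 4 Smart-seq2 libraries (oligo-dT primer, PCR). The submitters' processing notes name HISAT2 2.1.0, Bowtie2 2.2.3, TopHat2, HTSeq 0.6.0 and hg38, without their roles; the annotation and the strand setting are not given in the sources used here. Repeated entries with the same count were used once, between 22 and 25 date-like names for each library were left out, and missing genes were set to 0. CPM is the count divided by the library total. Groups were compared with edgeR 4.0.16 (TMM, filterByExpr, quasi-likelihood F test, Benjamini-Hochberg over all genes) in R 4.3.3. The code was tried on simulated data with the spread of the PBS libraries. Those data held no library that stood apart, so the trial does not show how the test performs here. p-values measure the spread between libraries, which may be technical. Poisson intervals and floors cover counting error only. Alternatives were DESeq2 1.42.0, other normalizations and filters, an adjusted p of 0.1, a replicate block and leaving out each library.

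The 10 genes and the gene lists were chosen with earlier results of these data known. The text names the 10 genes and, from each list, the 2 with the highest mean CPM and the 3 with the smallest p. It also names the 3 genes outside the set, lists and markers that were nearest to FOS and to FOSL1. Genes that this rule would also name are in part not reported here. Tables and figures were made with Python 3.11.15. The deviations of same-numbered libraries from their group means correlated at 0.08 (16361 genes), and they were not treated as pairs.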

Additional observations from a re-analysis of the deposited data

How the results depend on the processing

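The count of genes past an adjusted p of 0.05 was 0 for the 10 members, the listed pathway genes and all genes with edgeR, DESeq2, upper-quartile normalization, library totals, no filter, a minimum of 10 counts, the replicate block and, for the members and all genes, a threshold of 0.1. At an unadjusted p under 0.05 edgeR gave 226 of 16361 genes, DESeq2 457 of 16361 and the replicate block 173 of 16361. No filter gave 879 of 31907 genes and the count minimum 462 of 13542. Among the 10 members JUND alone was under 0.05 with DESeq2, no filter and the block, where 2.79%, 2.75% and 1.06% of all genes were. With the count minimum 0 of the 10 were, against 3.41% of all genes. Under the block JUN had a log2 fold change of -2.27, EGR1 of -1.49, FOS of -0.94 and JUND of -0.97, and 0 genes passed. Leaving out single libraries gave 0 to 8 members, 0 to 87 listed genes and 0 to 9489 genes in all: without rIL-17B replicate 1 these were 2, 12 and 504, and without rIL-17B replicate 2 the highest values. The direction of 3 members turned. Over the leave-outs FOSL2 went from -0.4875 (without rIL-17B replicate 2) to 0.0125 (without rIL-17B replicate 1), DUSP1 from -0.25 to 0.0194 in the same fits, and IER3 from -0.0007 (without PBS replicate 1) to 0.1562 (without PBS replicate 2), each on the log2 scale and none past the threshold where it had turned. The log2 fold changes of the 10 genes under the other settings, 60 values, kept their direction and their side of the adjusted p threshold. The mean share of JUN in its family with PBS was 42.7% of counts without length, against 27.95% per kb. With 2 libraries in a group and 1 that stands apart, the standard errors of the members reached 1.23 on the log2 scale (JUN), which limits what the test over 4 libraries can detect.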
